A study of Mus musculus with 8 samples.

Results

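The genes described here encode splicing factors of the Hnrnp, Srsf, Snrp and Sf3 families, 52 of the 22028 protein-coding genes of the mouse annotation used (GENCODE M21, genome build mm10, also called GRCm38). They were chosen by gene symbol alone, as all protein-coding genes whose symbol starts with one of these names: 20 Hnrnp, 11 Srsf, 12 Snrp and 9 Sf3 genes. Every m6A peak that shared at least 1 exonic base with one of these genes on the same strand was counted. E14 is a line of mouse embryonic stem cells (ESCs), and these cells had received doxycycline (Dox) or its solvent DMSO for 24 h. In the study's cells, which both treatments shared, Dox switches on a transgene of the transcription factor Dux, which drives ESCs into a state like that of the 2-cell embryo, and a Mervl promoter drives a tdTomato reporter. Poly(A) RNA was fragmented, fragments carrying N6-methyladenosine (m6A) were pulled down with an antibody (IP), and IP and input RNA were sequenced, with 2 replicates in each of 4 groups (DMSO IP, DMSO input, Dox IP, Dox input). The peaks came as 1 list per treatment, with the replicates combined. No value below therefore has a replicate error, no test between treatments was possible, and the intervals given are exact 95% binomial intervals that cover counting error only.

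Pre-mRNA splicing is carried out by the spliceosome, whose small nuclear ribonucleoproteins are built on Sm proteins and whose U2 particle binds the branch point through the SF3A and SF3B complexes. SR proteins, made by the Srsf genes, and hnRNPs bind pre-mRNA and favour or oppose the use of splice sites. Many of these genes control their own level by including an exon with an early stop codon, often called a poison exon, which sends the transcript to nonsense-mediated decay. m6A is laid down mostly at DRACH motifs (D stands for any base but C, R for A or G, and H for any base but G), and hnRNP A2/B1 and hnRNP C have been studied as proteins whose RNA binding responds to it.

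The sequences below are 25-base windows of mm10, read 5′ to 3′ on the strand of the gene, with the DRACH site nearest the middle of the peak in capitals. A GGAC form was taken where the peak held one. The first 7 come from coding-sequence peaks of genes with many peaks in each family, and all 7 capital sites lie in peaks of both lists.

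Hnrnpl (chr7:28818464-28818488, plus strand): accctggcagTAACCccaacaaacg

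Hnrnpa2b1 (chr6:51464474-51464498, minus strand): tggtggtggaGGACCtggatatggc

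Hnrnpm (chr17:33677387-33677411, minus strand): ggaaggagaaAAACAtaaaaagagg

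Hnrnpdl (chr5:100036627-100036651, minus strand): gtcagggccaAAACTggaaccaagg

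Srsf11 (chr3:158012407-158012431, minus strand): agaaagataaGGACAaagaaagaag

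Snrpa1 (chr7:66069431-66069455, plus strand): agaaaccctgTAACCaataagaagc

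Sf3b2 (chr19:5286830-5286854, minus strand): aggagcacaaGGACAgtgacgatga

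The next 3 come from peaks found in a single list, from the DMSO list for Sf3b3 and Hnrnpd and from the Dox list for Snrpc.

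Sf3b3 (chr8:110825525-110825549, minus strand): gtgatcgcccTGACTgggggagagc

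Hnrnpd (chr5:99966154-99966178, minus strand): ggatcagaaaGAACAtaaattgaat

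Snrpc (chr17:27851675-27851699, plus strand): catgatgcccGGACCtcccatgatg

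The last 5 show windows that were alike between paralogous hnRNP genes. They were chosen after their likeness had been seen.

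Hnrnpa3 (chr2:75663617-75663641, plus strand): tggaggtggtGGACCaggatatgga

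Hnrnph1 (chr11:50381486-50381510, plus strand): cattgccggtGGACTtccaggggag

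Hnrnph2, first window (chrX:134605332-134605356, plus strand): cactgccagtGGACTttcaggggcg

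Hnrnph2, second window (chrX:134605132-134605156, plus strand): agaaaccatgGGACAcagatatgtt

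Hnrnpf (chr6:117923981-117924005, plus strand): ggaaagcatgGGACAccggtatatt

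The windows of Hnrnpa2b1 and Hnrnpa3 had the same base at 21 of 25 positions, compared without gaps. The windows of Hnrnph1 and Hnrnph2 around GGACT also had 21 of 25 bases in common, and those of Hnrnpf and Hnrnph2 around GGACA had 20 of 25. The Hnrnpa3 window lay in a DMSO peak that no Dox peak overlapped, whereas the matching Hnrnpa2b1 window lay in peaks of both lists. That Hnrnpa3 peak had 15 near-identical copies elsewhere in the genome and the Hnrnpa2b1 DMSO peak had 0, which limits this comparison. The GGACT site of Hnrnph1 lay in a DMSO peak and outside the shorter Dox peak beside it, and that of Hnrnph2 lay in peaks of both lists. The Hnrnpf window and the second Hnrnph2 window also lay in peaks of both lists. The Hnrnpf DMSO peak had 2 near-identical copies elsewhere in the genome and the Hnrnph2 DMSO peak had 0. Hnrnph2 was among the genes with such copies of a Dox peak, which limits these comparisons too.

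Over all genes, 18895 peaks were listed under DMSO and 13001 under Dox. The score of a peak is taken here to be −log10 of the authors' p-value for IP over input, and its percentile is its place among all peaks of the same list. The length of a peak counts its exonic bases, while the coordinates of a peak that crosses exon junctions also span the introns between. The labels were checked by peaks on known transcripts. The pluripotency genes Pou5f1, Nanog, Sox2 and Esrrb carried peaks in both lists, and so did the 2C-like markers Zscan4c, with 4 DMSO and 3 Dox peaks, and Zscan4d, with 1 and 4. The 2C-like markers Duxf3, the mouse Dux gene, Usp17la and Tcstv1 carried 0 DMSO peaks and 4, 5 and 1 Dox peaks. Dox also switches on the Dux transgene, and whether its RNA contributed to the Duxf3 peaks was not tested. A peak needs transcripts to be listed at all, and neither read depth nor expression was analysed here. In such bulk RNA, fewer cells of a type and less RNA per cell cannot be told apart.

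Most of the splicing factor genes carried m6A peaks under both treatments. A DMSO peak lay on 42 of the 52 genes (80.8%, interval 67.5 to 90.4), against 27.5% of all protein-coding genes. A Dox peak lay on 41 (78.8%, 65.3 to 88.9), against 22.2% of all protein-coding genes. Peaks of both lists lay on 39 genes (background 21.5%), and 8 genes had none in either list (background 71.8%). Genes that carry out the same process had like shares: of 74 other splicing genes, such as Prpf8, Srrm2 and the Snrnp genes, 63 carried a peak under DMSO and 53 under Dox. The share of genes with a peak was thus well above that of all protein-coding genes in both lists, and the part of expression in this was not tested.

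The hnRNP genes were covered most completely, with peaks of both lists on 19 of 20. Both lists also covered 8 of 9 Sf3 genes and 7 of 11 Srsf genes. The Snrp genes, whose products are mostly short Sm and U-particle proteins, had peaks of both lists on 5 of 12. Median exonic length was 5898 bases for the Hnrnp genes and 2389 bases for the Snrp genes, so the family with the fuller coverage also had the longer genes. The genes without a peak were Hnrnpll, a relative of Hnrnpl; Srsf9 and Srsf12; Snrpb, Snrpe and Snrpf, which encode Sm ring proteins; Snrpb2, which encodes a U2 particle protein; and Sf3b6, which encodes the small SF3B subunit that touches the branch point.

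The splicing factor genes held 173 DMSO peaks and 123 Dox peaks, a ratio of 1.41 (1.11 to 1.79, from the exact interval of the DMSO share of both). The ratio of the whole lists was 1.45 (1.42 to 1.49), so the lower number of Dox peaks on these genes was of the size seen over all genes. The ratio was 1.40 for Hnrnp, 1.5 for Srsf, 1.5 for Snrp and 1.32 for Sf3 genes, and the interval of each family held the ratio of the whole lists. The other splicing genes, at 1.39, and 53 RNA helicase genes of the Ddx and Dhx families, at 1.35, lay in the same range. Per kb of exon, the splicing factor genes held 0.643 DMSO and 0.457 Dox peaks, against 0.191 and 0.132 over all protein-coding genes. The exons of genes without a peak count there too, and 71.8% of all protein-coding genes had none. The other splicing genes, at 0.545 and 0.394, and the helicase genes, at 0.525 and 0.388, lay nearer the splicing factor genes. The part of expression in these densities was not tested.

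Of the 39 genes with peaks of both lists, 24 carried more under DMSO, 5 carried more under Dox and 10 carried equal numbers. More DMSO than Dox peaks were thus found on 61.5% of them, against 49.4% of all genes with peaks of both lists. Of the 52 other splicing genes with peaks of both lists, 31 carried more under DMSO. The splicing factor genes with a DMSO peak held a median of 4 such peaks, against 2 over all genes with one. More peaks per gene leave more room for unequal numbers, which limits these comparisons. Genes with 5 or more DMSO peaks numbered 19, or 45.2% of the 42 with a DMSO peak, against 20.7% of all genes with one. Genes with 5 or more Dox peaks numbered 9, or 22% of 41, against 15.4%. At least 2 more DMSO than Dox peaks were counted on 16 genes, or 36.4% of the 44 with a peak, against 27.2% of all genes with a peak. At least 2 more Dox peaks were counted on Sf3b2 and Snrpc, or 4.55% of the 44, against 3.51%. The direction was thus mostly that of the whole lists.

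**Figure D1:**
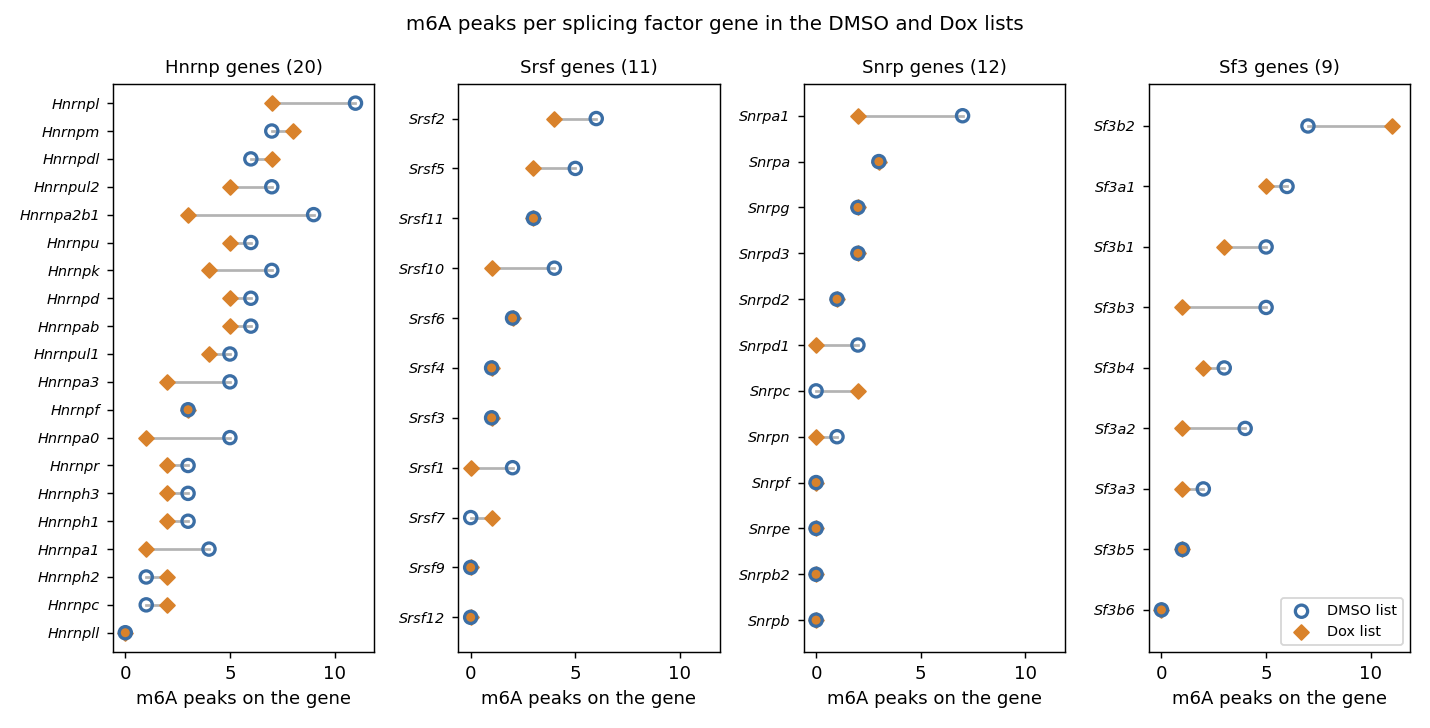
Number of m6A peaks on each of the 52 splicing factor genes (x axis, peaks per gene), with 1 panel per family, an open circle for the DMSO list and a diamond for the Dox list, joined by a line. Hnrnpa2b1 with 9 and 3 peaks and Snrpa1 with 7 and 2 lie toward DMSO, and Sf3b2 with 7 and 11 lies toward Dox. Each value is a count in 1 list and has no replicate error.

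Of the hnRNP genes, Hnrnpl, Hnrnpm and Hnrnpdl carried the most peaks summed over both lists. Hnrnpl encodes a protein that binds CA-rich RNA, and it had 11 DMSO and 7 Dox peaks. Its best-scoring peak, at chr7:28818460-28818534 in the coding sequence, covered the same 75 nt in both lists and held the TAACC window shown above. That peak scored 56.0 under DMSO and 27.9 under Dox, which put it at percentiles 99.6 and 99.0. The score was thus lower under Dox, and so was the percentile, by less than 1.

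Hnrnpa2b1 had the largest difference in score among the one-to-one paired peaks of these genes. It carried 9 DMSO peaks and 3 Dox peaks. The best-scoring DMSO peak of the whole set lay on this gene at chr6:51465163-51465838, with a score of 96.4 over 100 nt and rank 28 of the list. Its middle base lay in the coding sequence, and 63 of its bases lay in exons of protein-coding transcripts. The Dox peak in its place was 50 nt long, scored 17.7 and ranked 522. The neighbouring peak that holds the GGACC window shown above scored 73.0 under DMSO (percentile 99.8) and 13.3 under Dox (percentile 82.4). Both the score and the percentile were lower under Dox, and the percentile of this neighbouring peak lay further apart between the lists than that of the best Hnrnpl peak. The 6 DMSO peaks without a Dox partner were each 25 nt long, and 3 of them had a near-identical copy elsewhere in the genome.

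Hnrnpm encodes a protein that binds GU-rich RNA, and it had 7 DMSO and 8 Dox peaks. The 250-nt peak at chr17:33677329-33685404, which holds the AAACA window shown above, scored 33.7 under DMSO and 11.3 under Dox. A second peak, at chr17:33666590-33668641 in the DMSO list, scored 15.7 over 100 nt, and its Dox partner scored 32.4 over 50 nt, which was the best Dox score of the whole set. The best-scoring peak of this transcript was thus a different one in each list. A DMSO peak of 875 nt was matched by 2 Dox peaks of 425 and 450 nt.

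Hnrnpdl, which encodes a relative of the AU-rich element binding protein hnRNP D, had 6 DMSO and 7 Dox peaks. Its best peak was a single 25-nt window, at chr5:100036627-100036651, with the same ends in both lists and a score of 54.6 under DMSO and 28.3 under Dox. That window has 1 near-identical copy elsewhere in the genome. The sequence around it was not compared.

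The remaining hnRNP genes with peak numbers at least 2 apart all had more DMSO peaks. Hnrnpa1, which encodes a splicing repressor, had 4 and 1, and Hnrnpa3 had 5 and 2. Many of these peaks had near-identical copies, up to 19 other loci for the Hnrnpa3 peak at chr2:75665387-75665661. Hnrnpk, which encodes a poly(C)-binding protein, had 7 and 4 peaks, and Hnrnpul2 had 7 and 5. Hnrnpa0, a single-exon gene, had 5 and 1, but its 1 Dox peak was 1225 nt long and spanned 2 DMSO peaks of 525 and 700 nt. The bases covered on Hnrnpa0 were 1375 under DMSO and 1225 under Dox, much closer than the numbers of peaks. Hnrnpc had 1 DMSO peak of 550 nt, which was matched by 2 Dox peaks of 175 and 300 nt.

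**Figure D2:**
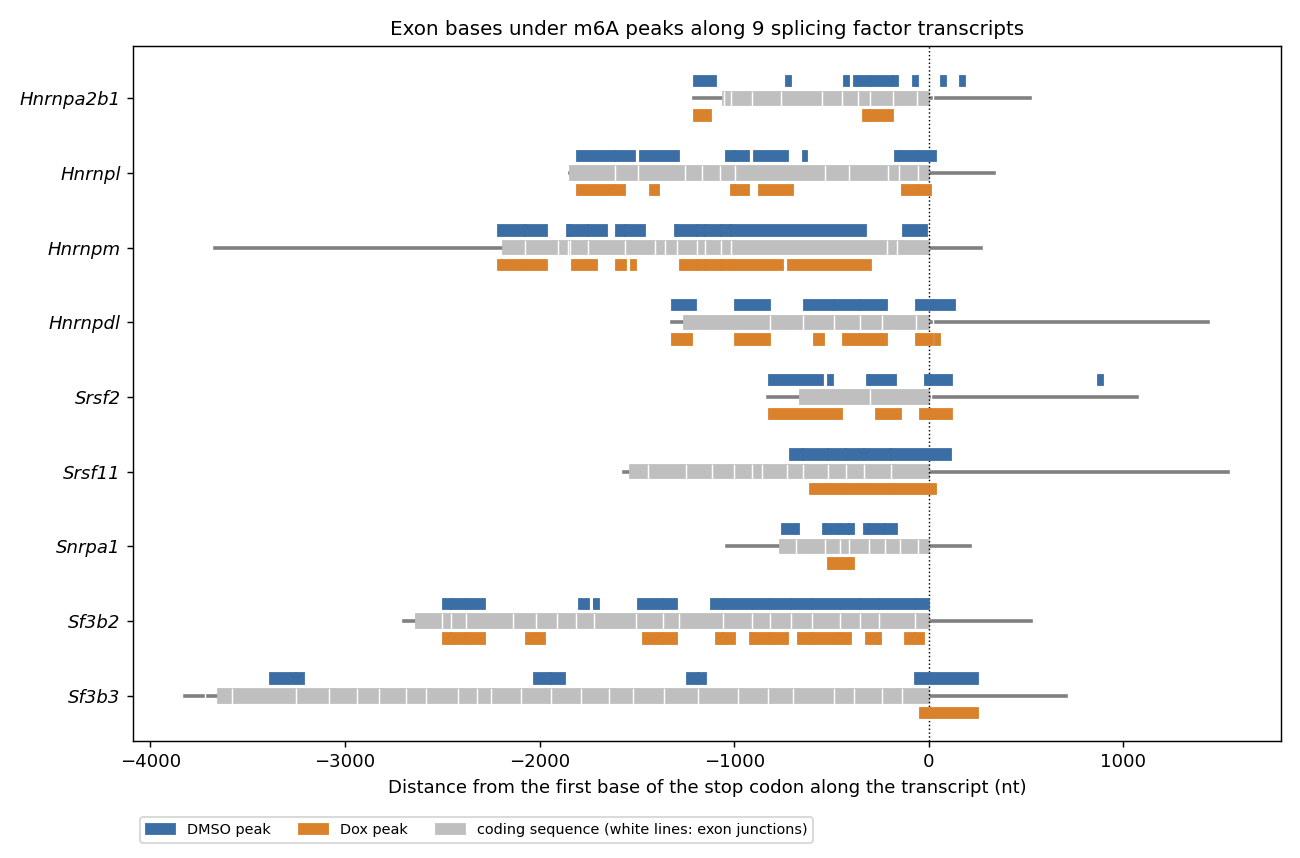
Exon bases under DMSO peaks (upper bars) and Dox peaks (lower bars) along 9 splicing factor transcripts, with distance from the stop codon in nt on the x axis, the coding sequence as a grey box, UTRs as a line and exon junctions as white lines. Most peaks lie within the coding sequence and many cross exon junctions. The 925-nt DMSO peak at the end of the Sf3b2 coding sequence stands above 4 separate Dox peaks.

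Of the SR protein genes, Srsf2, Srsf5 and Srsf11 carried the most peaks summed over both lists. Srsf2 encodes an SR protein of nuclear speckles and had 6 DMSO and 4 Dox peaks. Its best DMSO peak, at chr11:116851731-116852049, scored 22.2 and held no DRACH site, and the Dox peak in its place scored 13.6. Its best Dox peak, at chr11:116850851-116851504, scored 22.2 as well, against 17.5 in the DMSO list. Srsf11 had 3 peaks in each list, and its peak at chr3:158012504-158012887 was the best of the family in the DMSO list, with a score of 44.8 against 20.2 in the Dox list. That peak covered 125 nt in both lists and also held no DRACH site. Srsf5 had 5 DMSO and 3 Dox peaks, and Srsf10, which encodes a splicing repressor, had 4 and 1.

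A pair of SR protein genes carried peaks in 1 list only. Srsf1, which encodes a founding member of the family, had 2 DMSO peaks, of 50 and 25 nt, with a best score of 11.1. The lone Srsf7 peak, under Dox, was 50 nt long and scored 11.03. All 3 peaks scored below the median of their list. Srsf4 stood out by length, with 1 peak in each list that covered 1450 nt (score 12.03) and 1350 nt (score 14.4).

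Of the Snrp genes, Snrpa1 carried the most peaks summed over both lists, and its numbers lay furthest apart. It encodes the A′ protein of the U2 particle and had 7 DMSO and 2 Dox peaks. Its best DMSO peak, at chr7:66069166-66069450, scored 21.6 under DMSO and 15.0 under Dox over the same 75 nt. Snrpa, which encodes the A protein of the U1 particle, had 3 peaks in each list, all overlapping, and Snrpd3, an Sm protein gene, had 2 in each. The best DMSO peak of Snrpd3 scored 21.2 under DMSO and 13.4 under Dox. Snrpd2, another Sm protein gene, had 1 peak with the same 475 nt in both lists, with scores of 16.02 and 16.48, and this was the best Dox score of the family. Snrpg had 2 peaks in each list.

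Peaks of a single list lay on 3 Snrp genes. Snrpd1, an Sm protein gene, had 2 DMSO peaks of 25 nt each with a best score of 11.1. Snrpn, an imprinted gene for an Sm protein, had 1 DMSO peak with a score of 10.3. Snrpc, which encodes the C protein of the U1 particle, had 2 Dox peaks. The one at chr17:27847998-27848072 scored 15.1, the best score of any Dox peak of these genes without a DMSO partner. The other, which holds the GGACC window shown above, scored 11.6 and had 4 near-identical copies elsewhere.

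Over all 52 genes, peaks of the DMSO list alone lay on Srsf1, Snrpd1 and Snrpn, or 7.14% of the 42 with a DMSO peak, against 22% of all genes with one. Peaks of the Dox list alone lay on Srsf7 and Snrpc, or 4.88% of the 41 with a Dox peak, against 3.05%. Over all protein-coding genes the same calls came to 6.06% for DMSO and 0.676% for Dox. These are 5 genes in all, and apart from the better Snrpc peak none of their peaks scored above 12.

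Of the Sf3 genes, Sf3b2 was the one with more Dox peaks. It encodes an SF3B subunit that contacts RNA near the branch point and had 7 DMSO and 11 Dox peaks. A DMSO peak of 925 nt, at chr19:5274457-5283964, was matched by 4 Dox peaks of 75 to 275 nt, and another of 225 nt by 2. Another 2 Dox peaks, of 50 nt each, had no DMSO partner. The bases covered on Sf3b2 were 1650 under DMSO and 1275 under Dox, so extent and number of peaks lay in opposite directions. Its best peak, which holds the GGACA window shown above, scored 28.1 under DMSO, the best of the family, and 17.98 under Dox.

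The SF3B scaffold gene Sf3b3 lay the other way in number, with 5 DMSO peaks and 1 Dox peak. Its coding-sequence peak at chr8:110825489-110825588, which holds the TGACT window shown above, scored 24.5 and was the best DMSO peak of these genes without a Dox partner. The next best such DMSO peaks were at chr6:51466139-51466163 in Hnrnpa2b1, with a score of 21.4, and at chr5:99966082-99966206 in Hnrnpd, with a score of 18.9. The peak of Sf3b3 that both lists shared spanned the end of the coding sequence and the 3′UTR and scored 13.44 and 17.01. Sf3b1, which encodes the branch-point-binding subunit often mutated in leukaemia, had 5 and 3 peaks, and Sf3a2 had 4 and 1. Sf3a1 had 6 and 5, with a best Dox score of 18.8, the highest of the family. Sf3b5, with a coding sequence of 258 nt, had 1 peak of 575 nt in both lists.

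In all, 9 DMSO peaks of these genes were overlapped by 2 or more Dox peaks and 3 Dox peaks by 2 or more DMSO peaks. Numbers of peaks therefore partly count how one stretch was divided. The bases covered were 31824 under DMSO and 23500 under Dox, a ratio of 1.35. Of 94 peaks paired one to one, the DMSO peak was longer in 62 (66.0%), the Dox peak was longer in 6 and the lengths were equal in 26. Over all protein-coding genes the DMSO peak was longer in 68.9% of such pairs. The score percentile was higher under DMSO in 52 of the 94 pairs (55.3%) and under Dox in 42. Over all protein-coding genes it was higher under DMSO in 62.0% of pairs. Many pairs named above were picked as best DMSO peaks, a choice that by itself favours a lower Dox score.

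Shared sites made up most of the peaks. Of the DMSO peaks of these genes, 109 of 173 (63.0%, 55.3 to 70.2) overlapped a Dox peak, against 57.1% of the DMSO peaks of all protein-coding genes. Of the Dox peaks, 117 of 123 (95.1%, 89.7 to 98.2) overlapped a DMSO peak, against 92.8%. The median length was 175 nt for shared DMSO peaks and 50 nt for those without a partner. The 64 unmatched DMSO peaks had a median score percentile of 66.5, against 28.1 for unmatched DMSO peaks of all protein-coding genes. The 6 unmatched Dox peaks lay on Hnrnpf, Sf3b2, Snrpc and Srsf7. The best of them after Snrpc were at chr6:117917535-117917559 in the 5′UTR of Hnrnpf, with a score of 13.6, and at chr19:5291307-5291356 in Sf3b2, with a score of 11.97.

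Peaks of these genes also ranked high within their lists. The median score percentile was 76.8 under DMSO and 77.4 under Dox. It was 67.2 and 66.6 for the other splicing genes and 55.7 and 53.4 for the helicase genes. The best-scoring 10% of the DMSO list held 50 of the 173 peaks (28.9%, 22.3 to 36.3), and that of the Dox list held 38 of the 123 (30.9%, 22.9 to 39.9). Of all peaks on protein-coding genes, 9.97% and 9.96% fell there. A score grows with read number as well as with enrichment, and the part of expression was not tested.

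**Figure D3:**
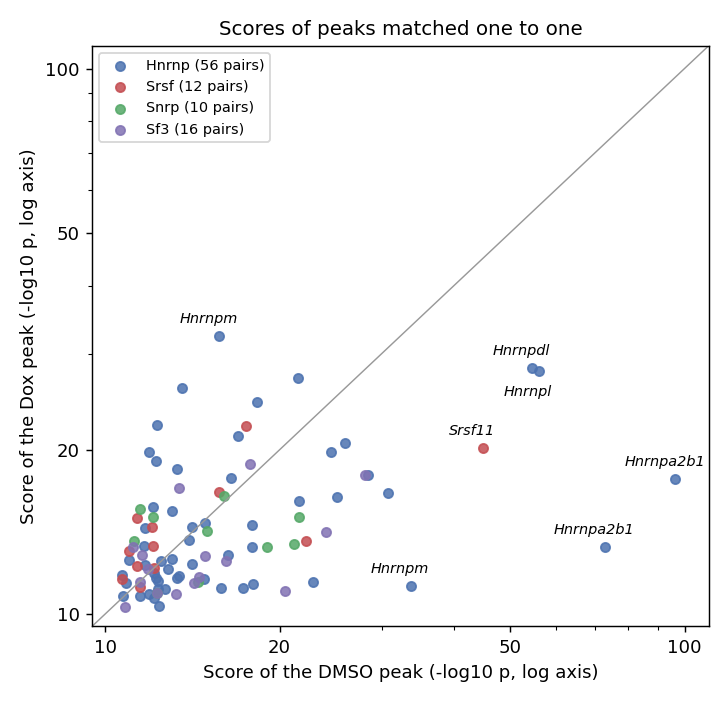
Scores (−log10 p) of the 94 one-to-one peak pairs of splicing factor genes, with the DMSO peak on the x axis and the Dox peak on the y axis, both log axes, coloured by family, and a grey line of equal scores. The 2 labelled Hnrnpa2b1 pairs, at 96.4 and 73.0 in the DMSO list, lie furthest below the line, and the Hnrnpm pair with a Dox score of 32.4 lies above it. The scale of the scores may differ between the lists.

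Along the transcript, the peaks of these genes lay in the coding sequence more than those of all genes. On the transcript with the longest coding sequence, 81.7% of the DMSO peaks (74.9 to 87.3) had their middle base in the coding sequence, against 72.1% of the DMSO peaks of all protein-coding genes. For Dox peaks the shares were 84.0% (76.2 to 90.1) and 71.2%. The other splicing genes had like shares, 84.2% under DMSO and 84.7% under Dox. The 3′UTR held 12.2% of the DMSO peaks (7.61 to 18.2) and 6.72% of the Dox peaks (2.95 to 12.8), against 24.4% and 24.9% for all protein-coding genes. The make-up of the transcripts was pooled over all their bases. Over the 44 genes with a peak, 40.7% of transcript bases were coding and 48.3% were 3′UTR, against 53.8% and 40.1% over all protein-coding genes with a peak. The Hnrnpr transcript alone is 21452 nt long, with its stop codon near nt 2030, and weighs heavily in the 3′UTR share. That share was not recomputed without Hnrnpr, so no 3′UTR contrast of the transcripts is read from it. The share within 200 nt of the stop codon, 22.6% (16.4 to 29.7) under DMSO and 23.5% (16.2 to 32.2) under Dox, was close to that of all genes (22.9% and 25.2%).

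The peaks lay more often outside the last exon, and on shorter exons, than those of all genes. The last exon held 25% of the DMSO peaks and 23.5% of the Dox peaks, against 43.6% and 46.9% over all protein-coding genes. Pooled over bases, the last exon made up 59.0% of the transcripts with a peak, against 48.9% over all protein-coding genes with a peak. The Hnrnpr transcript weighs heavily there too. The exon under the middle of a peak had a median length of 188 nt in the DMSO list, against 785 nt over all protein-coding genes. The median exon of the transcripts was 137 nt and 135 nt, but this counts each exon once, whereas long exons hold more bases. The contrast in exon length was not separated from that in last exons. For the other splicing genes the last exon held 20.1% and 25.2% of the peaks, and the exon under a DMSO peak had a median of 175 nt. These traits were thus not particular to the named families. Peaks that crossed an exon junction made up 45.7% (38.1 to 53.4) under DMSO and 46.3% (37.3 to 55.6) under Dox, against 26.6% and 21.8%. The other splicing genes had like shares of such peaks, 48.5% and 46.7%, so such peaks were not particular to the named families. Within the families the share in the DMSO list was 40.8% for Hnrnp, 41.7% for Srsf, 55.6% for Snrp and 57.6% for Sf3 genes.

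**Figure D4:**
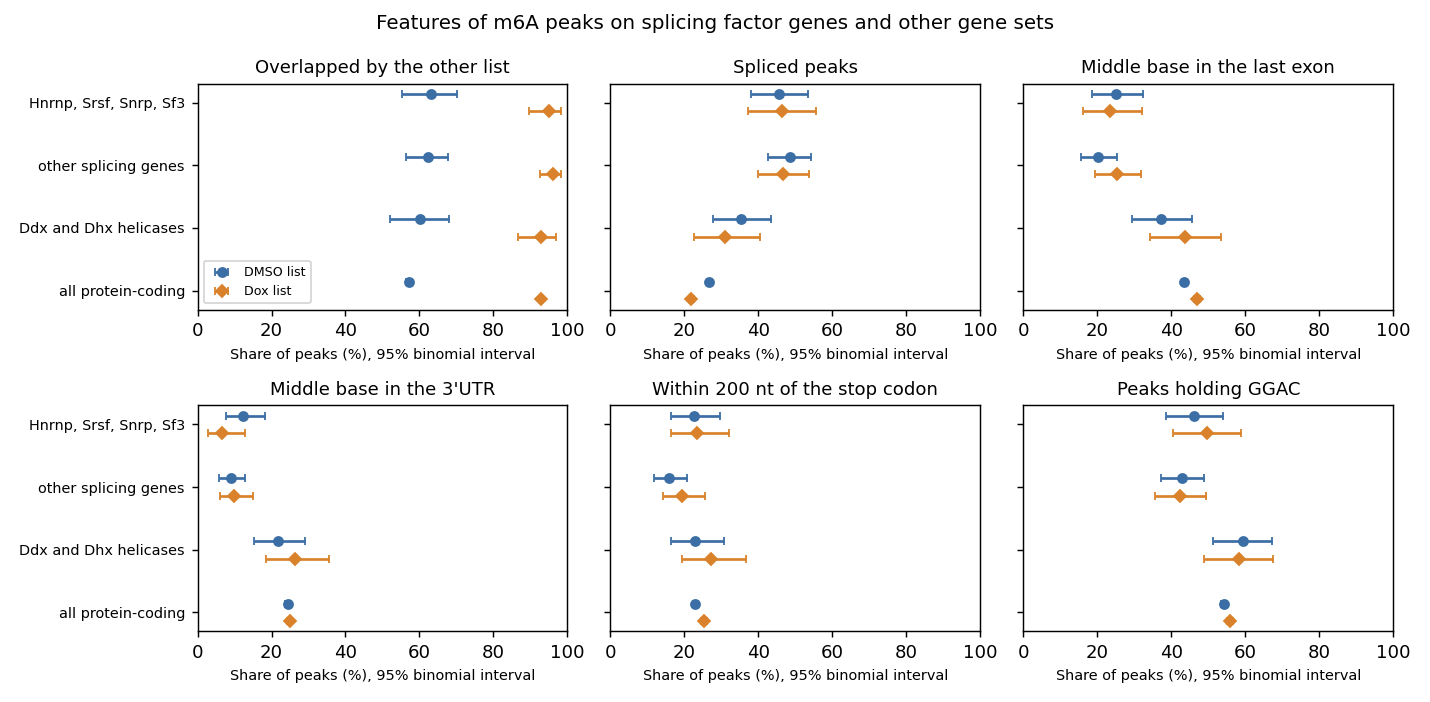
Share of peaks (x axis, percent) with each of 6 features in the DMSO list (circles) and the Dox list (diamonds), for the splicing factor genes, other splicing genes, Ddx and Dhx helicase genes and all protein-coding genes, with exact 95% binomial intervals as bars. The splicing factor genes lie with the other splicing genes, at more spliced peaks (45.7% and 46.3%) and fewer 3′UTR peaks (12.2% and 6.72%) than all protein-coding genes, and their shares at the stop codon (22.6% and 23.5%) lie close to those of all protein-coding genes.

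GGAC was searched on the strand of the peak alone, and every GGAC followed by A, C or T is also a DRACH site. Of the DMSO peaks of these genes, 46.2% (38.6 to 54.0) held GGAC, against 54.1% of the DMSO peaks of all protein-coding genes. For Dox peaks the shares were 49.6% (40.5 to 58.8) and 55.9%, and the interval held the share of all genes. Per kb of peak, GGAC was found 4.59 times under DMSO and 5.06 times under Dox, against 6.14 and 6.54. The other splicing genes had like values, with GGAC in 43.0% and 42.4% of peaks and 4.51 and 4.60 times per kb. The low GGAC content was thus not particular to the named families, although the helicase genes, at 6.37 and 7.25 per kb, did not share it. Pooled over their bases, the transcripts of the splicing factor genes themselves held less GGAC, 3.13 per kb against 4.21 over all protein-coding genes with a peak. The long Hnrnpr transcript weighs heavily there too. DMSO peaks with a Dox partner held GGAC in 58.7% of cases and those without one in 25%, and the latter were also shorter. Over all protein-coding genes the shares were 69.3% and 33.9%, so this contrast was not particular to the splicing factor genes. The commonest DRACH form in the DMSO peaks was AGACA with 53 sites, followed by GAACA with 46, GGACA with 43 and GGACC with 41.

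A few peaks lay in exons that no protein-coding transcript of the gene uses. In Srsf3, an SR protein gene whose poison exon is well known, the single peak of each list lay wholly within an exon of nonsense-mediated decay transcripts that no protein-coding transcript uses. Other non-coding transcripts of Srsf3 also cover it. It covered 75 nt at chr17:29039782-29039856 under DMSO (score 10.7) and 25 nt at chr17:29039807-29039831 under Dox (score 11.6). Hnrnpa1 had a DMSO peak of 125 nt in such an exon, at chr15:103245813-103245937 (score 17.2), with no Dox partner. Hnrnpl had a 25-nt DMSO peak at chr7:28817381-28817834 (score 17.8) with 24 of its bases in such an exon. A further Hnrnpl peak, at chr7:28816482-28816781, lay in a retained intron and was found in both lists, over 300 nt (score 12.5) and 200 nt (score 12.5). Peaks with any base in an exon of decay transcripts and of no protein-coding transcript numbered 6 under DMSO (3.47%, 1.28 to 7.40) and 5 under Dox (4.07%, 1.33 to 9.23), against 1.27% and 1.05% of the peaks of all protein-coding genes. These counts are small, and some of the peaks touch such an exon by a few bases.

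In the wider splicing machinery, peaks lay on 63 of the 74 other genes under DMSO and on 53 under Dox, with 52 in both lists, 11 in the DMSO list alone and 1 in the Dox list alone. Acin1, which encodes a protein of the exon junction complex periphery, had 17 and 11 peaks, and Srrm2, a nuclear speckle protein gene, had 16 and 13. Prpf8, which encodes the core protein of the spliceosome, had 10 and 3 peaks, and Snrnp200, which encodes its helicase, had 9 and 3. Snrnp70, which encodes the U1 particle protein U1-70K, had 6 in each list. The large peak numbers of Hnrnpl and Sf3b2 were thus met by several genes outside the named families.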

How the data were processed

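MeRIP-seq libraries of IP and input RNA from E14 ESCs, 2 replicates in each of 4 groups, were made by the authors. Per the study's methods and the submitters' processing notes, reads were filtered with fastp 0.19.4 and aligned to mm10 with HISAT2 2.2.1, and peaks were called with exomePeak2 (version, settings and the combination of replicates are not given in the sources used here). The deposited lists, 1 per treatment, held each peak's exon blocks and a score, read from its values as the authors' −log10 p-value: the lowest was 10.0 and 4 were infinite. Whether it was adjusted is not given. Depth per library was not analysed here, and a deeper library gives more peaks and higher scores.

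Peaks were set on exons of GENCODE M21, same strand, at least 1 shared base; peaks of the lists sharing at least 1 base were called overlapping. Positions used the transcript with the longest coding sequence. Sequences came from the RefSeq GRCm38 assembly. Near-identical copies were sought with blastn 2.17.0 (at least 90% of the peak at 98% identity or more). Calculations used Python 3.11.15, numpy 2.4.6 and scipy 1.17.1, and figures matplotlib 3.10.9. The steps that assign genes, overlaps and distances were tested on simulated data.

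With 1 list per treatment no test was made. Peaks are not independent replicates. Named with values were, per family, the 3 genes with most peaks and the best-scoring peak of each list, every gene with peaks in 1 list or numbers at least 2 apart, the genes with none, and the 3 best unmatched peaks of each list. Sequences were taken for coding-sequence peaks of the genes with most peaks and for unmatched peaks, none on chromosome 18. Other genes and peaks were named after their values were seen. The genes, the other gene lists and the rules were chosen with earlier results of these data known.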

Additional observations from a re-analysis of the deposited data

How the results depend on the processing

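Of 44 alternative values for 12 results, 32 stayed close to the reported value, which means within 1.5 times for counts and within the 95% interval for shares and ratios (that of the ratio of peak numbers for covered bases), and 12 moved. With a score of at least 15, 27 genes under DMSO and 24 under Dox carried a peak, 52 and 35 peaks in number, a ratio of covered bases of 1.08, and overlap shares of 42.3% for DMSO and 62.9% for Dox; the ratio of peak numbers was 1.49. Fewer peaks enter there by construction. With equal list sizes (the 13001 best peaks of each list), 39 genes under DMSO and 41 under Dox carried a peak, against 42 and 41, so that the order turned. The overlap share of Dox peaks was 89.4% there. The ratio of peak numbers was 1.20 (0.934 to 1.53), where that of the whole lists is 1 by construction, a value that the interval holds. With a window of 400 nt, the share at the stop codon was 39.0% under DMSO and 37.0% under Dox. The stop codon share, slightly higher under Dox in the report, was higher under DMSO there, with a score of at least 15 (28% and 25.7%) and on the longest transcript (24.6% and 23.5%), so no order is read from it. With DRACH in place of GGAC, 76.3% and 78.9% of peaks held the motif. Without the 35 DMSO and 21 Dox peaks that have near-identical copies, 38 and 34 genes kept a peak and the ratio was 1.35. Also, 5 DMSO peaks lay on a readthrough gene as well as on Hnrnpul2 or Snrpa1. No paired analysis was possible because replicates of a treatment had been merged into 1 list before deposit, and for the same reason no replicate could be left out. Depth and expression, not analysed here, limit every comparison of peak numbers and scores.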
